A study of Mus musculus with 12 samples.

Results

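Inhibitory checkpoint receptors were described in cultured mouse regulatory T cells (Tregs) as 9 genes chosen by symbol, Ctla4, Pdcd1, Lag3, Havcr2, Tigit, Btla, Klrg1, Cd200 and Vsir, out of 55228 gene symbols with a value. RNA came from 12 libraries that form 4 groups of 3. EV no IL-2 Tregs carried an empty retroviral vector with the Thy1.1 reporter and were kept without IL-2 after a wash. EV+IL-2 Tregs carried the same vector and stayed in medium with IL-2. 1G12t and 3A10t Tregs carried a vector in which the orthogonal IL-2 variant 1G12 or 3A10 is tethered to a mutated IL-2 receptor beta chain. They too were kept without IL-2 after the wash. By the study's methods, all Tregs were first activated with beads against CD3 and CD28 and had IL-2 until that wash. All 4 groups came from CD4-enriched lymph node cells of 16 pooled NOD.Foxp3-GFP mice, sorted as GFP+CD25+ in 3 parts on separate machines, with a transduction on day 2, a wash on day 4 and a sort of Thy1.1+ cells on day 9. The study's methods name spleens beside lymph nodes as a source, and the labels give no age or sex. The 3 replicates of a group were separate cultures of 1 pool of cells, so the p-values below measure the spread between cultures and not between animals. Libraries of the same replicate number shared a sort across the groups, and the study's methods describe EV+IL-2 as a portion of the EV culture. The main fit did not use this pairing.

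Checkpoint receptors are surface proteins that lower T cell activation when they bind a ligand on a neighbouring cell. CTLA-4 takes CD80 and CD86 away from the costimulatory receptor CD28, and PD-1, TIGIT and BTLA carry tyrosine motifs in their tails that recruit phosphatases. Tregs are known for high CTLA-4, which they use to suppress other T cells, and many of these receptors are induced by stimulation through the T cell receptor. Cd200 is a ligand rather than a receptor, since it acts on CD200R1 of other cells, and VISTA, the product of Vsir, acts as both, so the name of the group covers those genes only loosely.

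The values are TPM, which are counted per length of transcript and relative to all transcripts of the library, divided by a scaling factor for each library. These factors ran from 0.854 to 1.09. A level below is a scaled TPM, and a difference is one of log2(scaled TPM + 1), which understates the change of a gene near 1 TPM. Of the 9 genes 8 passed the minimum mean TPM of 1 and were tested among 15043 genes, and Klrg1, with a mean of 0.843, was not. A gene was called where the Benjamini-Hochberg adjusted p of limma, over all genes tested, was under 0.05.

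The genes lie on 5 chromosomes of GRCm38 in the GENCODE M21 annotation, and several sit beside genes they work with. Ctla4 (chr1:60887000-60915832, plus strand) starts 113640 bases after the end of Cd28 and ends 62094 bases before Icos, which encode the activating members of its receptor family. Lag3 (chr6:124904361-124911705, minus strand) is separated from Cd4, its relative in sequence and its rival for MHC class II, by 16139 bases. Chromosome 16 holds Tigit (chr16:43648867-43664146, minus strand), Btla (chr16:45224315-45257670, plus strand) and Cd200 (chr16:45382135-45409053, minus strand), with 124464 bases between Btla and Cd200. Pdcd1 is at chr1:94038305-94052553 (minus strand), Havcr2 at chr11:46454935-46481255 (plus strand), Klrg1 at chr6:122270596-122282882 (minus strand) and Vsir at chr10:60346851-60372684 (plus strand). The whole of Vsir lies inside the span of Cdh23 on the opposite strand. The library kit is not stated to keep the strand, and the genes share 0 exonic bases. Cdh23 stood at 4.94 to 6.49 scaled TPM in EV no IL-2 and 1.86 to 2.79 in EV+IL-2. It was at 5.79 to 8.33 in 1G12t and 7.29 to 9.40 in 3A10t, against 177 to 307 for Vsir over all libraries. A part of Cdh23 reads in the Vsir values was not tested.

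The 250 bases before the start of a gene are shown for the genes of chromosomes 1 and 16 that moved with IL-2 (Pdcd1, Tigit and Cd200, all lower) and for Btla, which stood the other way. RefSeq windows on GRCm38.p6 were matched for 7 of the 9 genes, all but Lag3 and Klrg1. The starts are those of RefSeq, which for Ctla4, Havcr2, Tigit and Btla are not the GENCODE ones given above. The Btla bases thus run past the GENCODE start and the Tigit bases end short of it. The bases searched before the RefSeq start of Ctla4, chr1:60908775-60909024, lie inside its GENCODE span. The sequences are given 5′ to 3′ on the strand of the gene, with each TTTCC, which is GGAAA read from the other strand and the core that NFAT factors bind, in capitals.
Pdcd1, chr1:94052554-94052803, minus strand: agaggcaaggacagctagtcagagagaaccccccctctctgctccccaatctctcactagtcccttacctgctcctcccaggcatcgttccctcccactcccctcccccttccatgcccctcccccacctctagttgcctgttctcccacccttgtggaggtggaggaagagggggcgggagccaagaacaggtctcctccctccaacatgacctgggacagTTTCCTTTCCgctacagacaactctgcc
Tigit, chr16:43664185-43664434, minus strand: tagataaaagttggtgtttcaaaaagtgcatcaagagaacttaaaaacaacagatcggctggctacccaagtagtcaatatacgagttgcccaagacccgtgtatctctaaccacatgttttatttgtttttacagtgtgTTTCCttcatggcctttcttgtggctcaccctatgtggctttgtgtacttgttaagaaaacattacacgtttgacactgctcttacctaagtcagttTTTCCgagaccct
Cd200, chr16:45409054-45409303, minus strand: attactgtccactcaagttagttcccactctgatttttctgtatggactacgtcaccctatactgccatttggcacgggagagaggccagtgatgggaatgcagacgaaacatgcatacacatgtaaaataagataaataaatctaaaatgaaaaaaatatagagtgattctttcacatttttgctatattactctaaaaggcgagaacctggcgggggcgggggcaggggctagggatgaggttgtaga
Btla, chr16:45224087-45224336, plus strand: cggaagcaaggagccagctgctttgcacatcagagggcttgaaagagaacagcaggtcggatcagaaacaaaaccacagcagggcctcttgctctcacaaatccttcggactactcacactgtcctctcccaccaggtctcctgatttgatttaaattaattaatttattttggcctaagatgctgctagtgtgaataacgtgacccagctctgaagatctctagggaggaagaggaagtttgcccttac
Pdcd1 has 2 such cores, side by side at 28 and 23 bases before the start, and Tigit has 2, at 110 and 13 bases before it, while the bases of Cd200 and Btla hold 0. Of the windows not printed, that of Ctla4, which was not called with IL-2, holds 1, at 144 bases before the start. Those of Havcr2 and Vsir hold 0. Over all 32851 mouse windows, which also take in 50 bases after the start, 61.3% hold this core on either strand, and it was searched for only after the values were seen. The STAT motif TTCNNNGAA was in 0 of the 7 windows and in 8.3% of all windows, and the forkhead motif GTAAACA was in 0 of the 7 and in 3.65% of all. The AP-1 motif TGANTCA, found in 7.81% of all windows, was in the Havcr2 window alone, as TGATTCA at 200 bases before the start. A match of this kind is a description of letters, not of binding.

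The members covered more than 2 orders of magnitude, and Vsir and Ctla4 made up most of their RNA. In EV no IL-2 Tregs the mean levels were 221 ± 8.0 (SD, n = 3) for Vsir, 198 ± 12 for Ctla4, 79.2 ± 5.6 for Cd200, 56.5 ± 2.7 for Pdcd1 and 29.1 ± 3.2 for Tigit. Lower levels were found for Btla (14.3 ± 1.6), Lag3 (13.4 ± 1.7), Havcr2 (2.13 ± 0.14) and Klrg1 (0.662 ± 0.29). Vsir and Ctla4 together held 63.4% of the summed level of the 9 genes in 1G12t, 66.9% in 3A10t, 76.3% in EV+IL-2 and 68.2% in EV no IL-2. Across the 12 libraries Vsir stood above 94.8% of the genes tested and Ctla4 above 93.9%, whereas Lag3 was near the middle, above 50.4%, and Havcr2 low, above 19.1%.

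The order of the levels was similar in the 4 groups. In EV no IL-2 each gene's 3 libraries lay apart from those of the next, other than for Btla and Lag3, whose ranges overlapped. Overlap was also found for Cd200 with Pdcd1 and Btla with Tigit in EV+IL-2, for Ctla4 with Vsir, Lag3 with Btla and Havcr2 with Klrg1 in 1G12t, and for Cd200 with Pdcd1 in 3A10t. Summed over the 9 genes, the level was 457 ± 15 in EV+IL-2, 615 ± 18 in EV no IL-2, 619 ± 16 in 1G12t and 657 ± 11 in 3A10t.

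**Figure D1:**
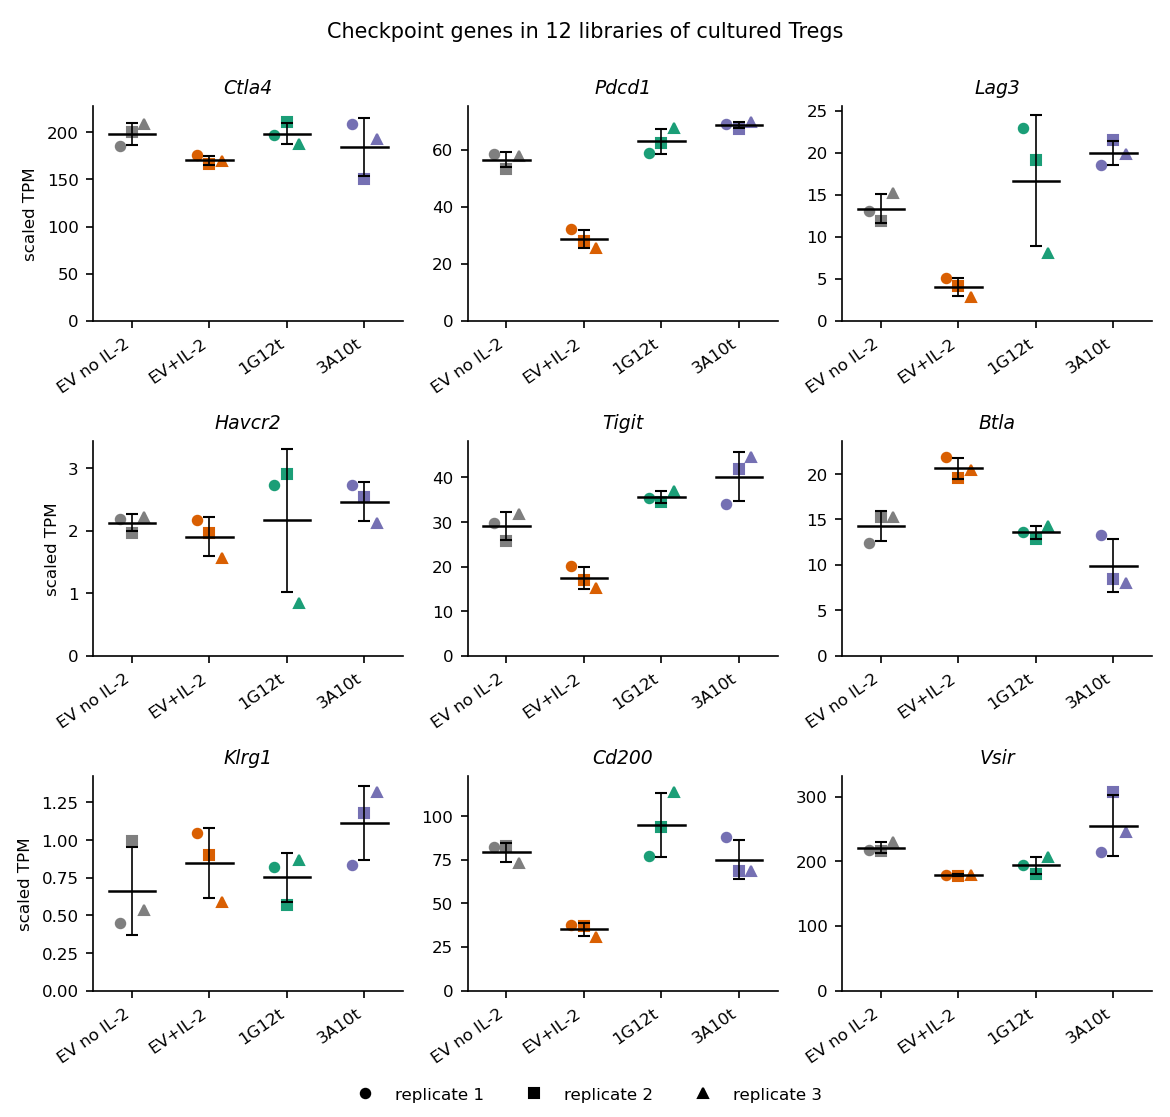
Level of each of the 9 genes (vertical axis, scaled TPM from 0, a scale of its own in each panel) in the 4 groups (horizontal axis). Points are libraries with the shape giving the replicate, long bars are means and whiskers are 1 SD of 3 libraries. Pdcd1, Lag3, Tigit and Cd200 are lowest in EV+IL-2, where Btla is highest.

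The libraries carried the markers of Tregs. Foxp3, the factor that defines them, was at 408 ± 49 in 3A10t, 494 ± 6.0 in EV no IL-2, 495 ± 10 in 1G12t and 502 ± 6.8 in EV+IL-2. Other Treg markers were less steady. Of the 7 tested, Il2ra and Tnfrsf18 were called higher with IL-2 than without it, and Il2ra had a mean of 700 against 412. In the tethered groups 0 of the 7 were called against EV no IL-2. Against EV+IL-2, Il2ra was called lower in both tethered groups, Foxp3 in 3A10t and Tnfrsf18 in 1G12t. Markers of other cells that bear checkpoint receptors were low, with the exception of the myeloid marker Cst3. The 3 NK cell markers summed to 0.092 to 0.383 in EV+IL-2, 0.659 to 2.26 in 1G12t, 1.17 to 1.96 in 3A10t and 1.39 to 2.41 in EV no IL-2, with Ncr1 at 0 to 0.201 in all libraries. Of the 5 myeloid markers only Cst3 was tested, at 440 to 762 scaled TPM, while Lyz2, Csf1r, S100a8 and S100a9 stayed under 1.73. The B cell markers summed to 9.19 to 16.6 and those of CD8 T cells to 3.45 to 6.51, and 0 of their tested genes were called against EV no IL-2. The 3 erythroid markers, of which Gata1 and Hba-a1 were called higher in EV+IL-2, summed to 157 to 185 there and to 53.3 to 69.2 in EV no IL-2. In bulk RNA, fewer cells with a transcript and less of it per cell cannot be told apart.

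The first comparison set Tregs left in IL-2 against those from which it was removed, with the vector the same in both groups. Pdcd1, Lag3, Tigit and Cd200 were lower with IL-2, by 1.67 to 3.32 times, and 0 members were called higher. Genes said to fall or rise with IL-2, here and elsewhere, are those lower or higher in EV+IL-2 than in EV no IL-2. With a single time point, a fall under IL-2 and a rise after its removal cannot be told apart. The 4 of 8 members called lower stand beside 5.13% of all genes tested called lower, 8.17% called higher and 13.3% called in either direction. In 7 of 8 members the 2 groups did not overlap, against 39.6% of all genes. The median difference of the 8 members was -0.51, and that of all genes was -0.014.

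Pdcd1 encodes PD-1, the receptor of PD-L1 and PD-L2 that dampens signals from the T cell receptor and CD28. It was at 58.4, 53.3 and 57.7 scaled TPM in the 3 EV no IL-2 libraries and at 32.0, 28.1 and 25.7 in those of EV+IL-2. Every library with IL-2 lay below every library without it, with a difference of -0.96 (SE 0.090, limma adjusted p = 5.1e-05).

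Lag3, which binds MHC class II, changed the most on the log scale. Its levels were 13.02, 11.9 and 15.2 without IL-2 and 5.10, 4.14 and 2.85 with it, so the groups were well apart. The difference was -1.53 (SE 0.30, limma adjusted p = 0.0069), a mean 3.32 times lower. The NK cell marker Klrd1 was also called lower in EV+IL-2, at 0.0511 to 0.332 against 1.062 to 2.25, all of these levels below those of Lag3 in the same libraries, and its part in the Lag3 result was not tested.

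Tigit, the inhibitory rival of CD226 for the ligand CD155, was at 29.9, 25.6 and 31.9 without IL-2 and at 20.1, 16.9 and 15.3 with it. The groups did not overlap, and the difference was -0.71 (SE 0.13, limma adjusted p = 0.0039). Cd200, the ligand of CD200R1, fell from 82.0, 82.9 and 72.8 to 37.7, 36.9 and 30.7. That difference was -1.16 (SE 0.15, limma adjusted p = 0.00049). In each of these 4 genes the groups did not overlap. The library with IL-2 was therefore also below the one without it from the same sort, in 3 of 3 sorts, which adds nothing to that.

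The other members were not called. Btla, whose ligand is HVEM, stood the other way, at 12.4, 15.3 and 15.2 without IL-2 and 21.9, 19.5 and 20.5 with it. All its libraries with IL-2 were above those without, yet the difference of 0.50 (SE 0.16) gave a limma adjusted p of 0.060 and was not called. Vsir was at 216 to 230 without IL-2 and 177 to 179 with it, a difference of -0.31 (95% interval -0.56 to -0.06, limma adjusted p = 0.11). Ctla4 was at 185 to 209 and 166 to 176, a difference of -0.21 (95% interval -0.46 to 0.03, limma adjusted p = 0.27). In both genes the groups did not overlap. Fitted on the 6 libraries of these groups alone, Btla was called higher and Ctla4 and Vsir lower, which made 7 members called, where 21.3% of all genes were called. Havcr2, which encodes TIM-3, overlapped, at 1.97 to 2.22 and 1.56 to 2.18, with an interval of -0.67 to 0.45.

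**Figure D2:**
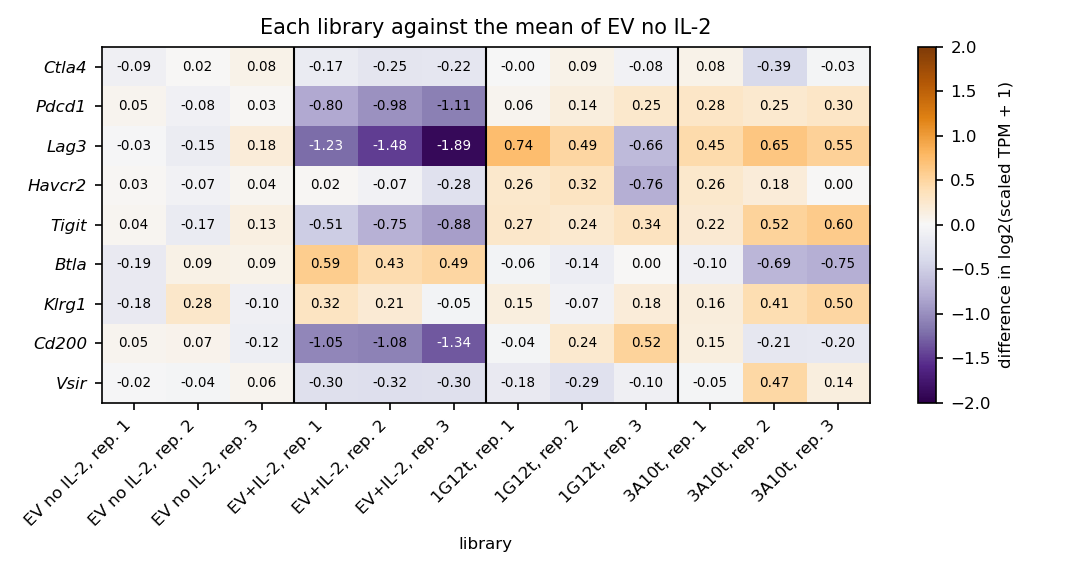
Difference of each library from the mean of EV no IL-2 (colour and printed value, log2 of scaled TPM + 1) for the 9 genes (rows) in the 12 libraries (columns, grouped by vertical lines). The EV+IL-2 columns run from -0.51 to -1.89 in Pdcd1, Lag3, Tigit and Cd200 and from 0.43 to 0.59 in Btla, and the third 1G12t library stands alone in Lag3 (-0.66) and Havcr2 (-0.76).

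The second comparison asked whether Tregs with tethered 3A10 differed from EV no IL-2 in these genes as EV+IL-2 Tregs did. Against EV no IL-2, 0 of 8 members were called in 3A10t Tregs, where 2.05% of all genes were, 0.452% higher and 1.6% lower, and 3 members and 3911 genes had an unadjusted p under 0.05. Those 3 members were Pdcd1, Tigit and Btla, and the first pair stood higher and Btla lower, the opposite side of EV no IL-2 from EV+IL-2 in each case, with the same control libraries in both comparisons. In 3 of 8 members the groups did not overlap, against 25.4% of all genes.

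Pdcd1 was at 68.8, 67.2 and 69.5 in 3A10t, above all of the 53.3 to 58.4 of EV no IL-2. The difference was 0.28 (95% interval 0.08 to 0.48, limma adjusted p = 0.11). Tigit was at 34.0, 42.0 and 44.6, again above every EV no IL-2 library, with a difference of 0.45 (95% interval 0.17 to 0.73, limma adjusted p = 0.085). Lag3, at 18.6, 21.5 and 19.9, also lay above the range of EV no IL-2, but its interval of -0.12 to 1.22 reached below 0.

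In Btla the 3A10t libraries split, as they did in Cd200, whose levels are given below. The first 3A10t library was at 13.3 in Btla, inside the range of EV no IL-2, and the others were at 8.43 and 8.03, below it. The Btla difference was -0.51 (95% interval -0.86 to -0.17, limma adjusted p = 0.098). Vsir was at 214, 307 and 245 in the same order, so its later libraries did not lie together (0.19, 95% interval -0.06 to 0.44). The first lay below the 216 to 230 of EV no IL-2 and the others lay above that range. The first 3A10t library had the largest root mean square distance to the other libraries of its own group of all 12, at 0.729 in log2. The second 3A10t library was close behind at 0.702, and the third was at 0.636. 3A10t had the widest spread, a median SD of 0.22 over genes against 0.11 to 0.15 in the other groups. Without the first 3A10t library 3 members were called, Tigit (0.56) and Vsir (0.31) higher and Btla (-0.72) lower, in a fit that called 23.1% of all genes.

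The remaining members of 3A10t overlapped with EV no IL-2. Ctla4 was at 209, 150 and 193, where the 150 of the second library was the lowest of all 12, and the interval of the difference was -0.36 to 0.13. Cd200 was at 88.0, 68.4 and 68.7 (interval -0.42 to 0.25). Its first library lay above the 72.8 to 82.9 of EV no IL-2 and the others lay below that range. Havcr2 was at 2.13 to 2.73 (interval -0.41 to 0.70). Foxp3, which is not a member, did not overlap, at 408 ± 49 in 3A10t and 494 ± 6.0 in EV no IL-2. Its 3A10t libraries, at 369 to 463, all lay below the 490 to 501 of EV no IL-2. The difference of -0.28 (interval -0.46 to -0.11, limma adjusted p = 0.082) was not called. Against EV+IL-2, Foxp3 was called lower in 3A10t.

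The third comparison set tethered 1G12 against EV no IL-2. Of the 8 members 0 were called, in a comparison where limma called 0.0199% of all genes, 0.0133% higher and 0.00665% lower, and 1 member and 1059 genes had an unadjusted p under 0.05. That member was Tigit, at 35.3, 34.4 and 37.1, above all EV no IL-2 libraries (0.29, limma adjusted p = 0.70). Pdcd1, at 58.7, 62.3 and 67.4, was above all of them too, and Vsir, at 195, 180 and 206, below all of them. These 3 of 8 without overlap compare with 16.5% of all genes. Ctla4, at 188 to 211, had a difference of 0.00 with an interval of -0.24 to 0.25, and Btla, at 12.8 to 14.2, one of -0.06 with an interval of -0.41 to 0.28.

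Lag3 and Havcr2 varied most among the 1G12t libraries, where the third library lay apart from the others. Lag3 was at 22.97 and 19.1 in the first and second library and at 8.03 in the third, and Havcr2 at 2.74, 2.91 and 0.851, the last being the lowest of all 12. Cd200, at 77.1, 93.5 and 114, was spread evenly. Without the third library the Lag3 difference from EV no IL-2 was 0.62 in place of 0.19. Among the partner genes the third library was again apart, with Cd86 at 16.5 against 30.4 and 30.5, Cd200r1 at 78.8 against 46.8 and 44.5, and the inhibitory receptor Lilrb4a at 2.01 against 23.1 and 15.7. The NK cell marker Klrd1 was at 0.256 there and at 1.87 and 2.10 in the others, and its part in the split was not tested.

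**Figure D3:**
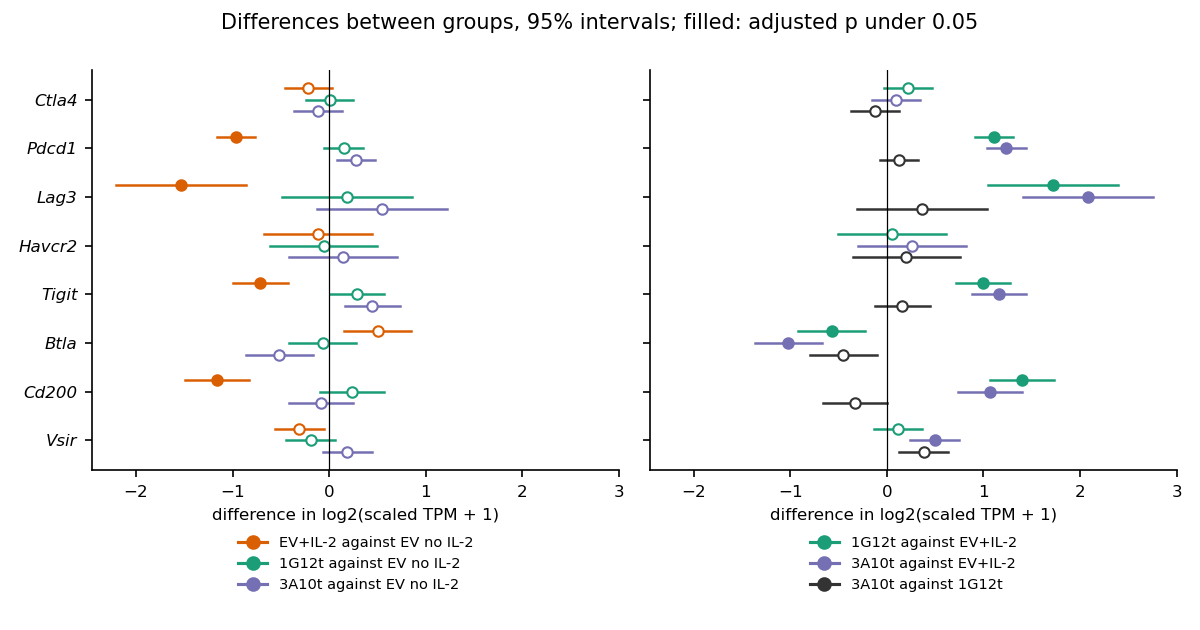
Difference in log2(scaled TPM + 1) between groups (horizontal axis) for the 8 tested members (vertical axis). Circles are estimates from limma, lines are 95% intervals, and filled circles have an adjusted p under 0.05. On the left the 4 filled circles all belong to EV+IL-2, and on the right Pdcd1, Lag3, Tigit and Cd200 are higher and Btla lower in both tethered groups than in EV+IL-2, while 0 members are called between 3A10t and 1G12t.

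The tethered groups were next compared with each other. Between 3A10t and 1G12t 0 of 8 members were called, where limma called 4.27% of all genes, 1.3% higher and 2.96% lower, and 2 members and 4470 genes had an unadjusted p under 0.05. These were Vsir, higher in 3A10t by 0.38 (95% interval 0.13 to 0.63, limma adjusted p = 0.069), and Btla, lower by 0.45 on the log2 scale (limma adjusted p = 0.095). Vsir was the only member without overlap, 1 of 8 against 26.2% of all genes. Without the first 3A10t library both were called, Vsir at 0.50 and Btla at -0.66, in a fit that called 27.3% of all genes. For Pdcd1 the interval ran from -0.07 to 0.33, for Tigit from -0.12 to 0.44 and for Lag3 from -0.31 to 1.03, so a moderate difference in Lag3 was not detectable here.

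Set against EV+IL-2, which these comparisons share, both tethered groups differed in most members. In 3A10t 6 of 8 were called, 5 higher and 1 lower, beside 23.4% of all genes called, 10.3% higher and 13% lower. The 3A10t mean of Lag3 was 4.96 times that of EV+IL-2, and those of Pdcd1, Tigit and Cd200 were 2.40, 2.31 and 2.14 times. The differences were 2.08 (SE 0.30) for Lag3, 1.24 (SE 0.090) for Pdcd1, 1.16 (SE 0.13) for Tigit and 1.07 (SE 0.15) for Cd200, and their limma adjusted p were at most 0.0010. Vsir was 1.43 times higher (0.50, limma adjusted p = 0.011), a call lost when only those 6 libraries were fitted (adjusted p = 0.079). Btla was 2.08 times lower (-1.02, limma adjusted p = 0.0014). In 6 of 8 members the groups did not overlap, against 36.9% of all genes.

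In 1G12t 5 of 8 members were called against EV+IL-2, 4 higher and 1 lower, beside 20.6% of all genes called, 9.69% higher and 10.9% lower. Lag3 was 4.14 times higher (1.72, SE 0.30), Cd200 2.70 times (1.40, SE 0.15), Pdcd1 2.20 times (1.11, SE 0.090) and Tigit 2.04 times (1.00, SE 0.13), each with a limma adjusted p of at most 0.0029. Btla was 1.52 times lower (-0.57, limma adjusted p = 0.027), a call that was lost on the TPM as deposited and without any 1 of the 6 libraries, with adjusted p from 0.056 to 0.10. In 7 of 8 members the groups did not overlap, against 43.2% of all genes. Ctla4 was the steadiest of the abundant members, with group means from 170 to 199. It was not called in these 6 comparisons with all 12 libraries in the fit, but on the 6 libraries alone it was called higher in 1G12t than in EV+IL-2 (0.22, limma adjusted p = 0.039), where the groups did not overlap.

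Klrg1, a marker of mature and effector Tregs, was near the lower limit of measurement. It was at 0.838, 1.183 and 1.32 in 3A10t, 0.821, 0.567 and 0.869 in 1G12t, 1.05, 0.899 and 0.590 in EV+IL-2 and 0.452, 0.994 and 0.539 in EV no IL-2. The groups overlapped in every comparison with EV no IL-2. With no filter on low TPM its largest difference was 0.35, in 3A10t against EV no IL-2, with a limma adjusted p of 0.24.

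The ligands and binding partners of these receptors were then examined, 12 of 19 being tested. The counts in this and the following lists stand beside the shares of all genes called, which with IL-2 was 13.3%, against EV no IL-2 2.05% in 3A10t and 0.0199% in 1G12t, between the tethered groups 4.27%, and 20.6% for 1G12t and 23.4% for 3A10t against EV+IL-2. With IL-2, 5 of 12 rose and 1 fell against EV no IL-2. The ligands of CTLA-4 rose, Cd86 from 27.6, 32.7 and 33.1 to 68.2, 82.8 and 62.7 (1.16, limma adjusted p = 0.0040) and Cd80 from 10.0, 11.8 and 11.3 to 20.2, 17.7 and 18.2 (0.71, limma adjusted p = 0.0074). T cells carry little of these proteins of their own making, and CTLA-4 can take them up from other cells, but RNA shows only what the cells transcribed. Cd200r1, the receptor of Cd200, rose from 44.6, 45.8 and 46.9 to 98.8, 101 and 91.4 (1.07, limma adjusted p = 0.0021), while its ligand fell, as given above. Tnfrsf14, which encodes HVEM, the ligand of BTLA, fell from 58.9, 66.3 and 71.9 to 39.0, 40.8 and 34.4 (-0.77, limma adjusted p = 0.0058), while Btla stood higher. For both pairs, then, ligand and receptor stood on opposite sides of EV no IL-2.

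Lgals3, a galectin that binds LAG-3, and Pdcd1lg2, which encodes PD-L2, were the other partners that rose. Cd274, which encodes PD-L1, was not called with IL-2 (10.4 ± 1.3 against 11.5 ± 0.31). It was the partner that differed between the tethered groups, at 8.87, 5.28 and 6.58 in 3A10t and 12.6, 13.2 and 14.9 in 1G12t (-0.90, limma adjusted p = 0.021). Against EV no IL-2, 0 of the 12 partners were called in either tethered group. Against EV+IL-2, Cd80, Cd86 and Cd200r1 were lower and Tnfrsf14 higher in both tethered groups, with Cd274 also lower in 3A10t and Lgals3 also lower in 1G12t. Lgals9, the galectin that binds TIM-3, and Selplg, which encodes the VISTA partner PSGL-1, were abundant, at 248 ± 16 and 1934 scaled TPM in EV no IL-2, and were not called with IL-2.

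**Figure D4:**
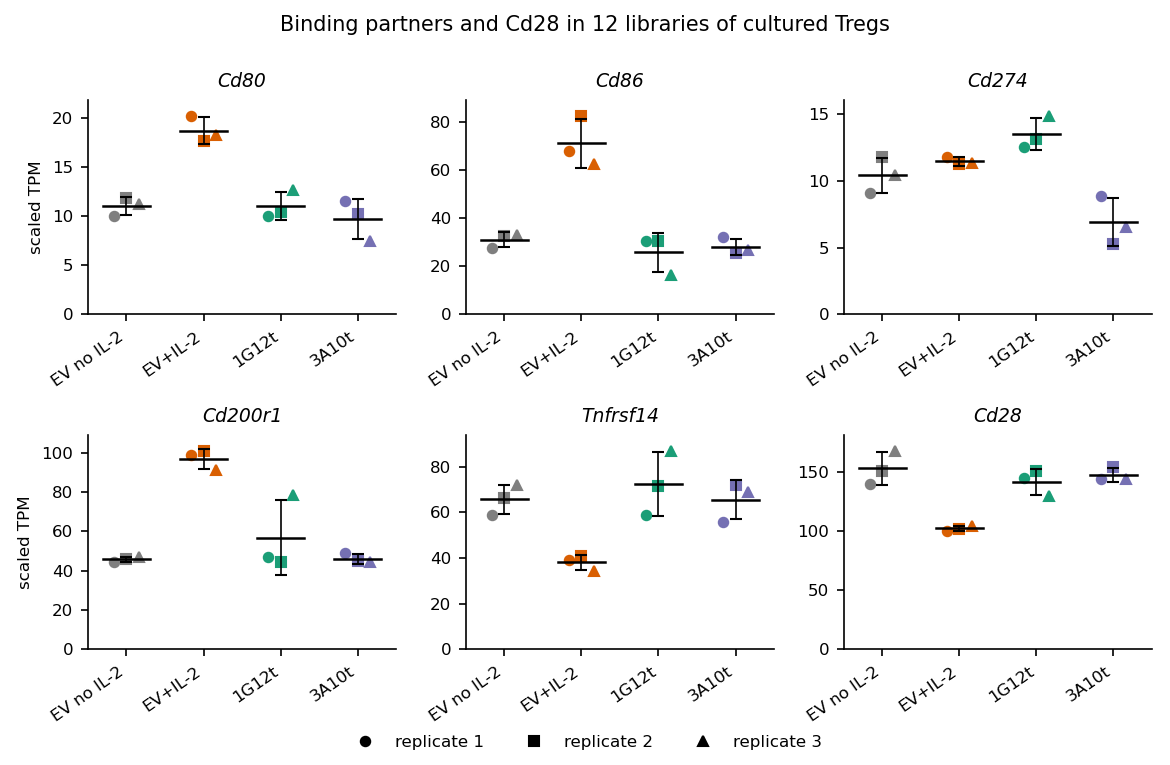
Level of 5 binding partners and of Cd28 (vertical axis, scaled TPM from 0, a scale of its own in each panel) in the 4 groups, with points for libraries, long bars for means and whiskers for 1 SD of 3 libraries. Cd80, Cd86 and Cd200r1 are highest and Tnfrsf14 and Cd28 lowest in EV+IL-2, and Cd274 is lowest in 3A10t.

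Of 9 costimulatory counterparts, all tested, 2 rose and 3 fell with IL-2. Cd28, which shares CD80 and CD86 with CTLA-4, fell from 140, 151 and 168 to 101, 102 and 104 (-0.57, limma adjusted p = 0.0013). Cd27 fell too, Tnfrsf18, which encodes GITR, rose from a mean of 1760 to 2786, and Tnfrsf9, which encodes 4-1BB, rose from 88.2 to 170. In the tethered groups 0 of 9 were called against EV no IL-2. Against EV+IL-2, Cd27, Cd28 and Tnfrsf14 were higher in both of them.

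A ratio of receptor to counterpart within a library does not depend on how the library was scaled. Ctla4 to Cd28 was 1.295 ± 0.047 in EV no IL-2 and, with all libraries above, 1.66 ± 0.069 in EV+IL-2, while 1G12t was at 1.40 ± 0.043, also all above, and 3A10t at 1.25 ± 0.25, overlapping. Tigit to Cd226, the receptors that compete for CD155, was 0.543 in EV no IL-2, against 0.374 with IL-2, all below, and 0.703 in 1G12t and 0.698 in 3A10t, all above. Lag3 to Cd4 was 0.0449 in EV no IL-2, against 0.0161 with IL-2, all below, and 0.0890 in 3A10t, all above, with 0.0592 in 1G12t overlapping. Over the 9 comparisons with EV no IL-2, those without overlap had an exact permutation p of 0.10, two-sided, the smallest that 3 against 3 libraries allow, and 0.13 after Benjamini-Hochberg adjustment, so none passed.

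**Figure D5:**
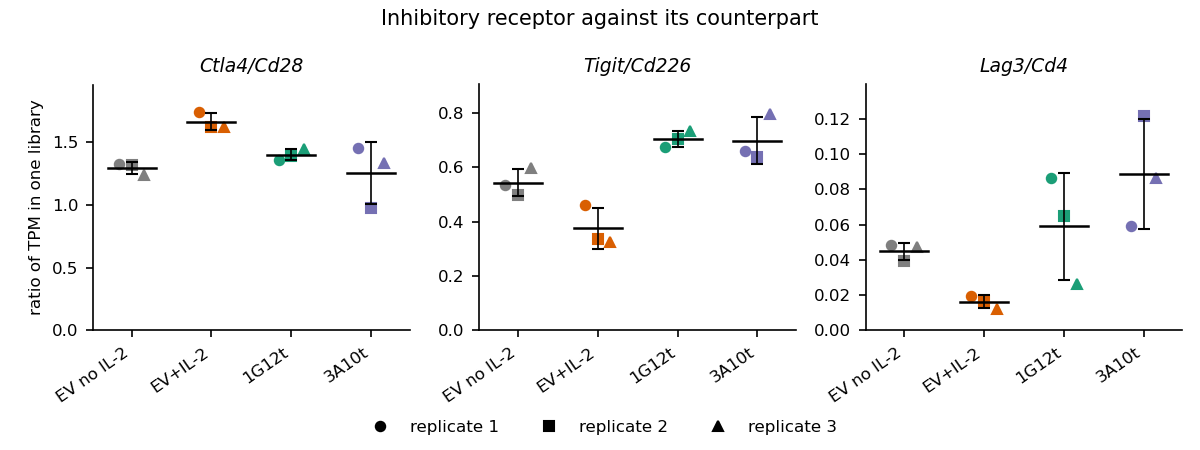
Ratio of the TPM of an inhibitory receptor to that of its counterpart in the same library (vertical axis, from 0) in the 4 groups, with points for libraries, long bars for means and whiskers for 1 SD of 3 libraries. Ctla4/Cd28 is highest in EV+IL-2 (1.66), where Tigit/Cd226 (0.374) and Lag3/Cd4 (0.0161) are lowest.

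Other inhibitory receptors of T cells, 9 of 10 tested, went both ways with IL-2, with 2 higher and 4 lower. Lilrb4a, an inhibitory receptor better known from myeloid cells, rose from 11.6, 14.8 and 17.5 to 92.7, 88.7 and 74.9 (2.48, limma adjusted p = 0.017), the opposite of Lag3 in the same libraries. Cd101 fell from a mean of 7.996 to 3.54 (-0.99), and Pecam1 from 77.9 to 48.8 (-0.66). In 3A10t and 1G12t, 0 of the 9 were called against EV no IL-2. Against EV+IL-2, 4 were higher and 1 lower in 3A10t, and 6 were higher and 2 lower in 1G12t, beside 23.4% and 20.6% of all genes called in those comparisons. The largest differences in 1G12t were those of Lilrb4a (-3.01), Cd101 (1.33) and Cd244a (1.23), and in 3A10t those of Lilrb4a (-1.89), Cd244a (1.11) and Cd160 (0.83).

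Genes that carry the signal or move the receptors were counted next, and their shares called with IL-2 were near the 13.3% of all genes. Of 12 signal transducers, 0 were called higher and 1 lower with IL-2. The latter was Ptpn22, a phosphatase that restrains T cell receptor signals, which fell from 86.9 to 47.3 (-0.86, limma adjusted p = 0.014). The phosphatases that PD-1 and BTLA recruit, Ptpn6 and Ptpn11, were not called in that comparison. Against EV+IL-2, Ptpn22 was higher in both tethered groups and Sh2d1a, an adaptor, in 3A10t. Of 11 genes of trafficking and shedding, 1 rose with IL-2, Trat1, an adaptor that helps CTLA-4 to the surface, from 290 to 486 (0.74, limma adjusted p = 0.00032). Fbxo38, part of the ubiquitin ligase that degrades PD-1, was lower in 3A10t than in EV no IL-2, at 23.6 against 42.2 (-0.87, limma adjusted p = 0.044). Trat1 and Ap1m1 were higher in 3A10t than in 1G12t (0.42 and 0.38). Adam10 and Adam17, the proteases that shed LAG-3, were lower in 3A10t than with soluble IL-2 (-0.48 and -0.66), and so was Fbxo38 (-0.59), while Cmtm6, which keeps PD-L1 at the surface, had the largest difference (-0.92). These 4 genes split as Btla did, with the first 3A10t library nearer than the others to those of EV+IL-2. Cmtm6 was at 220, 102 and 103 in 3A10t and at 229 to 270 in EV+IL-2, and Fbxo38 at 33.6, 18.6 and 18.5 and at 32.8 to 35.7.

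Among 15 tested transcription factors that act on these genes in T cells, 1 rose and 4 fell with IL-2. Batf, an AP-1 factor of effector Tregs, rose from 109 to 177. Tcf7, which encodes the quiescence factor TCF-1, fell from 214, 152 and 192 to 53.6, 34.5 and 55.0 (-1.96, limma adjusted p = 0.00022). Nr4a1, induced by T cell receptor signals, fell from 11.96 to 5.62 (-0.96), and Stat5b, which carries the IL-2 signal itself, from 127 to 76.1 (-0.73). Tcf7 was the one factor called in 3A10t against EV no IL-2 (-1.05, limma adjusted p = 0.044), and 0 were called in 1G12t. Against EV+IL-2, Nr4a1 was 3.51 times higher in 3A10t and 5.01 times higher in 1G12t, with Nr4a3, Tcf7 and Stat5b also higher in both. Tox, a factor known for sustaining PD-1, was at 55.6 without IL-2 and 55.8 with it and was not called.

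The pattern of each member over the 12 libraries was compared with that of 9792 genes by Pearson's r of log2(scaled TPM + 1). These are descriptions, since the 12 points share their groups, their sorts and their scaling. Pdcd1 and Tigit were most alike among the members (r = 0.96), followed by Pdcd1 with Cd200 (0.92) and with Lag3 (0.90), and Btla ran against Tigit (-0.88). Ctla4 followed none of them closely, its highest r with a member being 0.59, with Cd200. Outside the members, the genes most like Pdcd1 were Dhrs3 (0.99), Rasgef1a (0.97) and B630019A10Rik (0.97), and those most like Cd200 were Rgs16 (0.98), Cd83 (0.97) and B4galnt1 (0.97). Tigit was followed by Gm13305, Pdcd1 and Irf8 (each 0.96), Btla by Ccng1, Nek7 and Crybg1 (each 0.98), and Lag3 by Serpinb6a, Adh1 and Snx32 (each 0.95). Vsir was nearest to Trbv12-2 (0.98), Rhoh (0.95) and Sertad2 (0.95), and Ctla4 to Harbi1 (0.94), Prmt9 (0.93) and Mettl3 (0.92).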

How the data were processed

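RNA from 12 libraries of sorted Thy1.1+ Tregs was made into full-length cDNA from oligo-dT, fragmented and sequenced in pairs. The authors trimmed reads with cutadapt 1.18, aligned them with STAR 2.5.3 and estimated TPM with RSEM 1.3.0 on GRCm38, per the labels and the study's methods. The deposited TPM table was used whole, with 1 column for each library. The authors' own tests with DESeq2 1.26 rest on counts not used here. TPM keep no depth, so the precision of low values is unknown and the spread between 3 libraries is the only error.

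TPM were divided by median-of-ratios factors, computed over genes averaging 1 TPM or more and above 0 in every library. The 15043 genes that averaged 1 TPM or more were fitted with limma 3.58.1 in R 4.3.3 (lmFit, eBayes with a trend, two-sided) on log2(scaled TPM + 1), a pseudocount of 1, with 1 mean for each of 4 groups over all 12 libraries and no replicate block. Benjamini-Hochberg adjustment ran over all genes in each of 6 comparisons. The code was tested on simulated data.

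Groups were taken from the labels. The labels also give the pairing, a sort shared by libraries of one number; the deviations of the 18 such pairs from their group means correlated at 0.041 on average (-0.11 to 0.15), and those of other pairs at -0.020. The members, the 6 lists of related genes and the marker lists were chosen with earlier results of these data known. The text names all members, up to 3 called genes of each list and comparison with the largest differences, the partners of members, and the 3 genes most like each member of at least 5 TPM in Pearson's r. Beyond that rule, Batf, Tox, Ptpn6, Ptpn11, Adam10, Cd27 and the genes apart in the third 1G12t library were named after their values were seen. Positions came from GENCODE M21 and promoter windows from RefSeq on GRCm38.p6. Protein motifs were not analysed here. The fits were repeated with quantile normalization, with unscaled TPM, with pseudocounts of 0.1 and 5, without the low-TPM filter and with one of 5, without the trend, with a replicate block, on the 6 libraries of a comparison, and leaving out each library. Leaving libraries out of the ratios was added after the data were seen.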

Additional observations from a re-analysis of the deposited data

How the results depend on the processing

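Over all alternatives, 680 log2 differences of members kept their direction and their side of the threshold. Of the others, 14 turned in direction, 12 became called and 8 were no longer called. With the replicate block the counts of members called were 4 for EV+IL-2 and 0 for each tethered group against EV no IL-2, 0 between the tethered groups, and 6 for 3A10t and 5 for 1G12t against EV+IL-2, and the block changed no other call. Fitted on the 6 libraries alone, with an estimate of the spread of their own, 7 members were called in EV+IL-2 against EV no IL-2 in place of 4, 5 in place of 6 in 3A10t and 6 in place of 5 in 1G12t against EV+IL-2. With each library left out, the count ranged from 0 to 3 for 3A10t against EV no IL-2 and from 0 to 2 for 3A10t against 1G12t, in both cases through the first 3A10t library. Vsir passed the threshold in EV+IL-2 against EV no IL-2 on the TPM as deposited (-0.37, 5 members called) and after quantile normalization (-0.40), and Btla after the latter (0.46, 6 members called). In 1G12t against EV+IL-2 Btla was lost, which left 4, on the TPM as deposited and without any 1 library.

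Directions that turned belonged to differences that were not called. On the TPM as deposited, which moved the median of all genes in 3A10t against 1G12t from -0.017 to -0.18, Pdcd1 was at -0.064 and Tigit at -0.026 in that comparison. After quantile normalization Havcr2 was at -0.20 in 1G12t against EV+IL-2. With each library left out, Ctla4 ranged from -0.21 to 0.023 in 3A10t and from -0.043 to 0.044 in 1G12t against EV no IL-2, and from -0.22 to 0.019 between 3A10t and 1G12t. Lag3 ranged from -0.087 to 0.62 in 1G12t against EV no IL-2 and from -0.067 to 0.64 in 3A10t against 1G12t. Havcr2 ranged from -0.25 to 0.29, from -0.14 to 0.39 and from -0.14 to 0.40 in, respectively, 1G12t against EV no IL-2, the tethered groups and 1G12t against EV+IL-2. The log2 ratio of Ctla4 to Cd28 in 3A10t ranged from -0.18 to 0.10, and that of Lag3 to Cd4 in 1G12t from -0.11 to 0.74. The causes were not tested. Low levels limit Klrg1 and Havcr2, for which the depth is unknown.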
